A study of Mus musculus with 6 samples.

Results

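COUP-TFII, the orphan nuclear receptor encoded by Nr2f2, was mapped by ChIP-seq (chromatin immunoprecipitation followed by sequencing) in mesonephroi, pooled from E14.5 embryos of CD-1 mice. The chromatin came from XX mesonephroi (2 samples) or XY mesonephroi (2 samples), precipitated with a rabbit COUP-TFII antibody, and 2 further samples are input pooled from both. All embryos are of the CD-1 strain, and the labels name no allele or treatment. The authors deposited 1 list of peaks for each sex over its 2 samples, with 11175 XX and 9846 XY peaks of 300 bp each (mm10), without heights or scores. The regions described here are the autosomal peaks whose centre lay within 1 kb of an end (start or end coordinate in RefSeq) of 2 or more different protein-coding genes. Where an XX and an XY peak overlapped, the place was counted once, with the XX position. There were 1124 such peaks among 13190 autosomal places (8.52%) and 13538 places in all. The XX list held 977 of them and the XY list 952. Of the 1124, 1103 were near the ends of 2 genes, 21 near those of 3 and 0 near those of 4 or more, and 2049 different genes were involved. Below they are called close-pair peaks. They were chosen by the positions of the peaks relative to gene ends, so their distances from gene ends are given as a description and were not tested. Since each sex has 1 list, no value has a spread between replicates, sequencing depth is unknown, and tests over peaks compare the 2 lists and not the sexes.

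Many mammalian genes stand in close pairs. When a pair is transcribed outwards from a common stretch (head to head), that stretch can serve as a bidirectional promoter, typically rich in CpG and poor in TATA boxes. Such promoters are known for genes needed in most cells, such as those of DNA repair, mitochondria and translation. Pairs can also stand head to tail (the stop of a gene next to the start of another on the same strand) or tail to tail. Nuclear receptors of the COUP-TF family bind repeats of the half-site AGGTCA, among them the direct repeat with 1 base between the repeats (DR1).

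The letters of 8 close-pair peaks common to both sexes are shown first, as examples for the sections on position and on motifs. They were picked by the traits given below and do not represent the close-pair peaks as a whole. All lie at head-to-head pairs and are read 5′ to 3′ on the plus strand from RefSeq promoters (GRCm38.p6, the assembly of mm10), and capitals mark AGGTCA or its reverse complement TGACCT. At Capza1/St7l (chr3:104864373-104864672), a pair of an actin-capping subunit gene and a gene of unknown role, and at Ddx51/Noc4l (chr5:110653254-110653553), an RNA helicase gene and a gene of ribosome assembly, both starts lay closest to the peak centre among the peaks that could be read whole. The starts were 1 bp apart at Capza1/St7l and 50 bp apart at Ddx51/Noc4l, and neither peak holds the half-site.
Capza1/St7l: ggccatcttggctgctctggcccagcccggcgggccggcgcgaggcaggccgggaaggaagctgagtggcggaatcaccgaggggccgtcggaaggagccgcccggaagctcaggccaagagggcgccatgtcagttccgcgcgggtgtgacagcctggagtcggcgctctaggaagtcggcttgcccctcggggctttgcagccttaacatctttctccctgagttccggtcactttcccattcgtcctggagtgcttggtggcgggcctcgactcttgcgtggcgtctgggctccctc
Ddx51/Noc4l: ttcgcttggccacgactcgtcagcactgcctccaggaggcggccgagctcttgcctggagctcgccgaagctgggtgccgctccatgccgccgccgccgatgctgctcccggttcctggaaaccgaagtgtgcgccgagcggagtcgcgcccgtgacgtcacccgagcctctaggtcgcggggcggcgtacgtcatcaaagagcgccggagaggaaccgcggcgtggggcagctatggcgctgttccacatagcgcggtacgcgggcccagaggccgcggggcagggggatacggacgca
Cbx3/Hnrnpa2b1 (chr6:51469814-51470113) and Hspd1/Hspe1 (chr1:55087939-55088238) are textbook pairs. Cbx3 encodes the heterochromatin protein HP1-gamma and Hnrnpa2b1 an RNA-binding protein, while Hspd1 and Hspe1 encode the 2 mitochondrial chaperonins. The Hspd1/Hspe1 peak has 1 half-site, which begins at base 163 of the peak and is centred 15 bp from the middle. The Cbx3/Hnrnpa2b1 peak has none.
Cbx3/Hnrnpa2b1: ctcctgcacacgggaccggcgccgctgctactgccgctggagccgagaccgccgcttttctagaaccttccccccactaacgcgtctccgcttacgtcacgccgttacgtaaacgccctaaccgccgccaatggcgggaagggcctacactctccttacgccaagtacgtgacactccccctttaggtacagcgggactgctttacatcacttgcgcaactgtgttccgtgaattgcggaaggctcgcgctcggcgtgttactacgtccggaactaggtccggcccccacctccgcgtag
Hspd1/Hspe1: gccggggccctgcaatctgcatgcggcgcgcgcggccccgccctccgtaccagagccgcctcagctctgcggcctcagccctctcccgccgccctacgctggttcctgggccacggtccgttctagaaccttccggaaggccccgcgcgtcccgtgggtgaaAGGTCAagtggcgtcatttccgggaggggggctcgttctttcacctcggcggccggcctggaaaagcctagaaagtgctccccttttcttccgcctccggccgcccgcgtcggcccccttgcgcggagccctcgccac
The last 4 were chosen after their letters were seen, for their half-sites. Elf1/Wbp4 (chr14:79481046-79481345), Fv1/Miip (chr4:147868705-147869004) and Dhcr7/Nadsyn1 (chr7:143822991-143823290) have a half-site centred 32, 2 and 21 bp from the middle, and the last has a further one at 29 bp. Elf1 encodes an ETS transcription factor and Dhcr7 the enzyme of the last step of cholesterol synthesis. At 2700097O09Rik/Srp54a (chr12:55080176-55080475), where Srp54a encodes a subunit of the signal recognition particle, 2 half-sites form a DR1 that begins at base 203. This was the only DR1 in the 86 close-pair peaks that could be read whole.
Elf1/Wbp4: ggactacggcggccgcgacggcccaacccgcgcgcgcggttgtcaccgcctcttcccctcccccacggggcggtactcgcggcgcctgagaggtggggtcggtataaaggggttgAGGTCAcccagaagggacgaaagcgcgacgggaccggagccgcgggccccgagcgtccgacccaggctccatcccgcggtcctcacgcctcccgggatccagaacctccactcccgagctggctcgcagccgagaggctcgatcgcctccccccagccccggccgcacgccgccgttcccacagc
Fv1/Miip: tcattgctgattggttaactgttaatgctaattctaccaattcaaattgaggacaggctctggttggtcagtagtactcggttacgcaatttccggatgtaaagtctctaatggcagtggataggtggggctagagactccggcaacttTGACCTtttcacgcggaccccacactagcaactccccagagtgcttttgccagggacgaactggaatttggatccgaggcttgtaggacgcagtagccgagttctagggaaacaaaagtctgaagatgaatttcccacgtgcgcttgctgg
Dhcr7/Nadsyn1: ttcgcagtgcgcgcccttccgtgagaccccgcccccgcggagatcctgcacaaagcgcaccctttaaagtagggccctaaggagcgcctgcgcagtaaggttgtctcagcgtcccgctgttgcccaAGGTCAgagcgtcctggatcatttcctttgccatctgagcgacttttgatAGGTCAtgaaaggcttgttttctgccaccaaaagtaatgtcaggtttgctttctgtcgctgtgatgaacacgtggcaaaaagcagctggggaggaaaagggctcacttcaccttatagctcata
2700097O09Rik/Srp54a: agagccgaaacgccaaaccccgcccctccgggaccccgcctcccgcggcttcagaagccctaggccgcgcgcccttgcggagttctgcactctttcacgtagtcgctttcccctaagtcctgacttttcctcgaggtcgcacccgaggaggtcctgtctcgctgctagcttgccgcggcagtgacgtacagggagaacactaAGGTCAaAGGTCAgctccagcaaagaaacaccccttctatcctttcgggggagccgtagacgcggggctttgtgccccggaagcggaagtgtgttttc

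The first question was how the genes of each pair stand to each other. RefSeq promoters gave a strand for both genes at 869 of the 1124 peaks, and for the other 255 the orientation was not used. Of the 869, 688 (79.2%) lay at head-to-head pairs, 135 (15.5%) at head-to-tail pairs and 6 (0.69%) at tail-to-tail pairs. In a further 21 cases the start of a gene lay near the stop of a gene on the other strand, and in 19 the starts of 2 genes on the same strand lay close together. Genes are annotated as overlapping at 247 of the 688 head-to-head peaks, among them Hspd1 and Hspe1. Peaks near the end of exactly 1 gene were likewise at starts: of those with a known strand, 4609 (98.0%) were at a start and 94 (1.999%) at a stop.

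Pairs with 2 starts close together carried a peak most often, on the same strand as well as head to head. The autosomes have 4664 pairs of protein-coding genes with ends at most 2 kb apart, and 1069 of them (22.9%) had a peak within 1 kb of both. Among pairs of known orientation 26.7% had one. The share was 63.9% for head-to-head pairs (624 of 976) and 9.17% for all others (190 of 2071). Same-strand starts had a peak in 59.0% of cases (23 of 39, exact 95% interval 42.1 to 74.4), which overlaps the interval of 60.8 to 67.0 for head-to-head pairs. The genes are annotated as overlapping at all 19 close-pair peaks of this kind, with starts a median of 14 bp apart (lower quartile 0). Some, such as Ak6/Taf9 and Htd2/Rpp14, have 1 start coordinate under 2 gene names, so they are not 2 neighbouring starts. Pairs of a start near a stop on the other strand had one in 18 of 72 cases. Head-to-tail pairs had a peak in 15.6% of cases (137 of 881) and tail-to-tail pairs in 1.08% (11 of 1023). These shares are a description with no test, since the same closeness to 2 ends chose the peaks and nearly all single-end peaks were at starts. For scale, 30.5% of the starts of genes with no neighbour within 2 kb had a peak within 1 kb (3044 of 9991, olfactory receptor genes left out), and 0.632% of the stops of all such genes did (69 of 10912). No test was made between pairs and those starts.

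The share of head-to-head pairs with a peak was 74.1% where the starts were at most 200 bp apart (391 of 528), 69.0% at 201 to 500 bp, 55.1% at 501 to 1000 bp and 11.5% at 1001 to 2000 bp. Part of that decline is built in, since a centre within 1 kb of both starts has less room as they move apart. Head-to-tail pairs had a peak at 27.7%, 30.4%, 22.9% and 1.30% over the same 4 distances. The order of the 3 arrangements was thus the same at each distance.

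**Figure D1:**
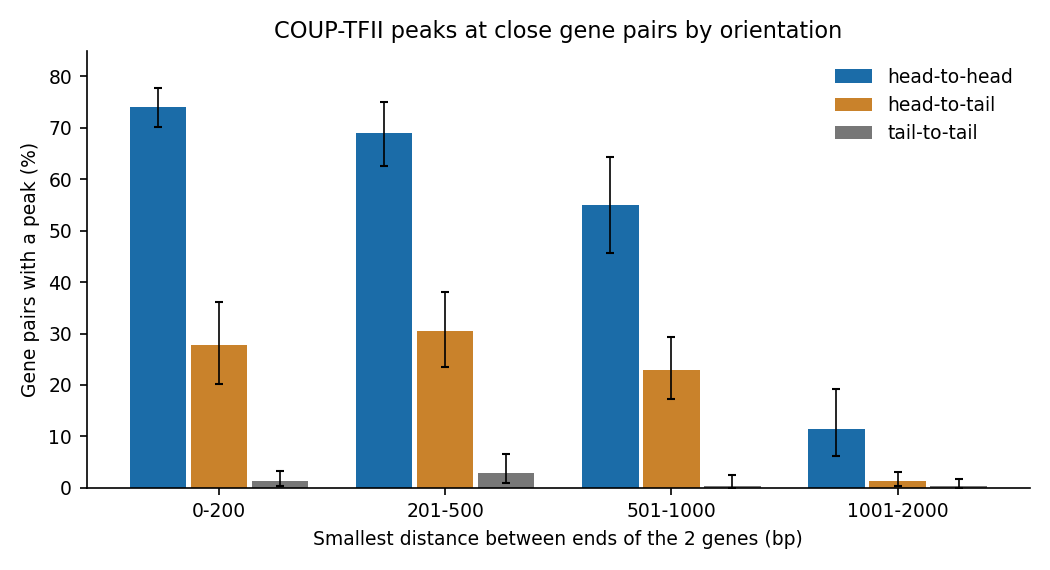
Share of autosomal pairs of protein-coding genes (percent, vertical axis) with a COUP-TFII peak within 1 kb of both, by the smallest distance between their ends (bp) and by orientation; error bars are exact 95% binomial intervals. Head-to-head pairs reach 74.1% at up to 200 bp, against 27.7% for head-to-tail and 1.32% for tail-to-tail pairs.

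Most of these peaks did not lie between the ends. The 2 nearest ends were a median of 165 bp apart (quartiles 60 and 381), closer than the width of a peak, and both fell inside the 300 bp of the peak in 164 cases. Only 253 of the 1124 centres (22.5%, exact 95% interval 20.1 to 25.1) lay between the 2 ends, so that "between" does not describe them and the regions are named here by their closeness to 2 ends. At the others the centre was to 1 side, most often a short way into a gene. Of all 1124 centres, 853 (75.9%) lay inside exactly 1 gene of the pair, 143 inside both and 128 inside neither. The share between the ends was 2.02% for ends at most 50 bp apart, 11.9% at 101 to 200 bp and 46.3% at 401 to 1000 bp. Beyond 1 kb it is 100% by the way the regions were chosen.

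At head-to-head pairs the centre lay downstream of the nearest start in 473 of 688 cases (68.8%, exact 95% interval 65.1 to 72.2). Its median position was 103 bp into the gene, with quartiles of -57.3 bp (upstream) and 202 bp. At single starts 3371 of 4609 centres (73.1%) were downstream, and the median was 154 bp into the gene. At a head-to-head pair the side follows from the arrangement of the genes. Where they do not overlap, every centre outside the gap is downstream of the nearest start. Where they overlap, every centre outside the overlap is upstream of it. The share at head-to-head pairs is thus a description, and no preference can be read from it or from its closeness to single starts. Where the centre was in exactly 1 gene of a head-to-head pair, that gene was the longer one in 259 of 535 cases (48.4%, exact 95% interval 44.1 to 52.7).

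**Figure D2:**
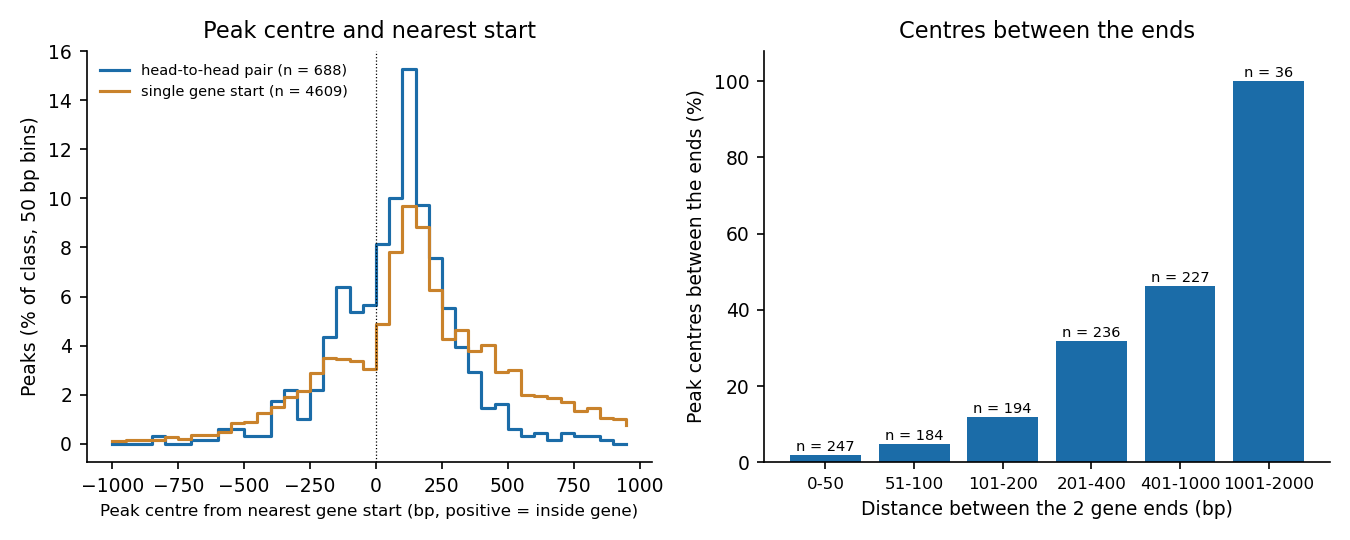
Left, distance of the peak centre from the nearest gene start (bp, positive into the gene) for peaks at head-to-head pairs and at single starts, as percent of each class in bins of 50 bp; right, percent of close-pair peaks whose centre lies between the 2 ends, by the distance between the ends. Both classes peak a little inside the gene, where at head-to-head pairs the side of the start follows from the gene arrangement. Of centres at ends at most 50 bp apart, 2.02% lie between them.

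Some pairs had a peak on each side. By their 2 nearest ends, the 1124 peaks fell at 1033 gene pairs, of which 89 had 2 or more peaks and 2 had 3. In 58 of the 89 (65.2%) the outermost peaks lay on both sides of the ends. Neighbouring peaks were a median of 661 bp apart, from 323 to 1340 bp. Both peaks were shared by the sexes at 16 pairs. Among these are Dtl/Ints7, of a ubiquitin ligase adaptor and an Integrator subunit gene, Apaf1/Ikbip, where Apaf1 encodes the core of the apoptosome, and Cpeb3/Marchf5. At Dtl/Ints7 the starts were 4 bp apart and the centres lay 416 bp and 337 bp from the nearer start, 1 on each side.

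At 25 pairs an XX-only and an XY-only peak stood next to each other with no shared peak. At Col4a1/Col4a2, which encode the main collagen chains of basement membranes and start 84 bp apart, the XX-only peak lay at chr8:11312938-11313237 and the XY-only peak at chr8:11312504-11312803. They lay on opposite sides of the starts, as did those at Rhoa/Tcta (starts 1 bp apart) and Acadsb/Ikzf5 (83 bp). At Abhd13/Lig4 (37 bp) both lay on the same side. Rhoa encodes a small GTPase of the cytoskeleton and Lig4 a DNA ligase of double-strand break repair. Such pairs count as 2 sex-only peaks although both sexes had a peak there. Of the XX-only close-pair peaks, 27.9% (48 of 172) had an XY peak within 1 kb, and 32.0% of the XY-only ones (47 of 147) had an XX peak. At single ends these shares were 29.4% and 25.8%. At the level of pairs, 78.8% of the 1033 had peaks of both lists, 122 had XX peaks only and 97 had XY peaks only. This share pools all peaks of a pair, and no matching share for single ends is given, so it is not compared.

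Close-pair peaks were shared by the sexes more often than other peaks. In all, 805 of the 1124 were in both lists (71.6%, exact 95% interval 68.9 to 74.2), where 55.6% of all autosomal peaks were. Of peaks near the end of exactly 1 gene, 63.8% were shared (3740 of 5866), an odds ratio of 1.43 for close-pair peaks (1.24 to 1.66 at 95% confidence, Fisher's exact p = 3.50e-07, two-sided). Of peaks over 1 kb from every gene end, 45.1% were shared (2795 of 6200), an odds ratio of 3.07 (2.67 to 3.54, Fisher's exact p = 1.39e-61). Fisher's test, here and below, takes each peak as independent, although 89 of the 1033 gene pairs held 2 or more. The share at close pairs was above that at single ends on 18 of the 19 autosomes, with chromosome 9 the exception (63.5% against 66.7%). It was 73.8% for head-to-head peaks (508 of 688, exact 95% interval 70.4 to 77.1) and 65.2% for head-to-tail ones (88 of 135, 56.5 to 73.2). These 2 intervals overlap, and the difference was not tested. By distance between the ends, the share was 75.3% at up to 50 bp, and between 68.6% and 72.2% at each longer distance. Peak strength, which these lists do not hold, was not compared.

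Shared close-pair peaks had their XX and XY centres a median of 32 bp apart (quartiles 13 and 66), against 33.5 bp at single ends. In the XX list, 82.4% of close-pair peaks were shared, against 78.8% of those at single ends. In the XY list these shares were 84.6% and 76.9%.

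**Figure D3:**
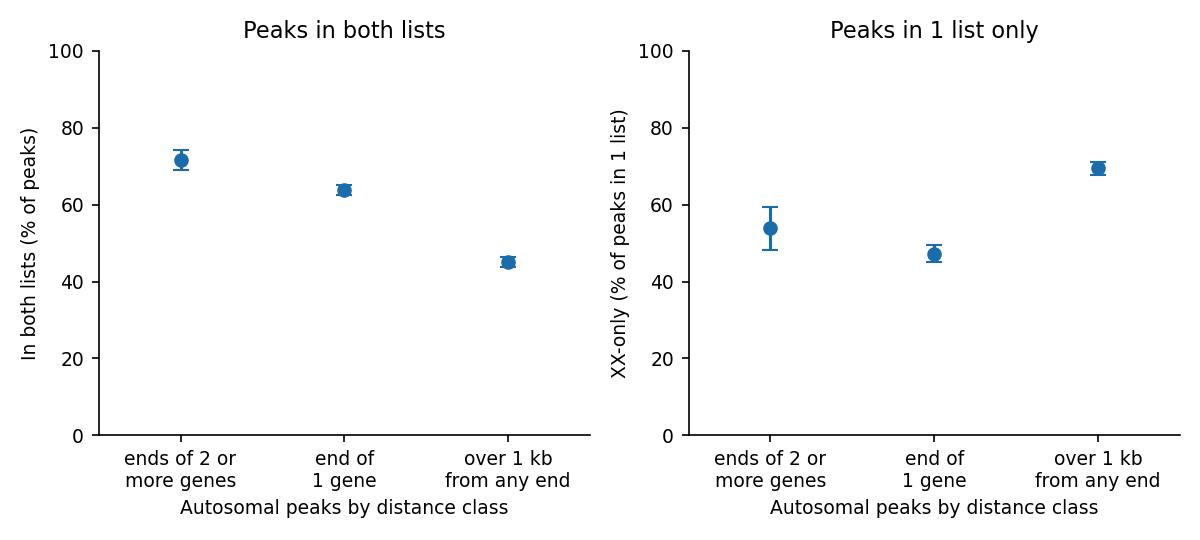
Left, percent of autosomal peaks found in both lists; right, XX-only peaks as percent of those found in 1 list. Points are shares and bars exact 95% binomial intervals, for peaks near ends of 2 or more genes, near the end of 1 gene and over 1 kb from any end; the shared percentages are 71.6, 63.8 and 45.1.

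The remaining 319 close-pair peaks were in 1 list only. Of these, 172 were XX-only and 147 XY-only, an XX-only share of 53.9% (exact 95% interval 48.3 to 59.5), where 60.5% of all autosomal sex-only peaks were XX-only. At single ends the share was 47.2% (1004 of 2126, odds ratio 1.31, 1.03 to 1.67 at 95% confidence, Fisher's exact p = 0.0263, two-sided). By the same exact test, the call ended when shared peaks had to have centres within 100 bp (odds ratio 1.19, p = 0.0560), without predicted Gm and Rik genes (1.26, p = 0.0705) and with genes of all kinds (1.05, p = 0.568). Of the 5 XX-only and 5 XY-only peaks nearest to the middle of their pair, Cwc27/Srek1ip1, a pair of splicing genes, had an XX-only peak with its centre 5.5 bp from the midpoint of starts 60 bp apart. Cenpk/Ppwd1, H2aw/Trim17, 4930524J08Rik/Hnrnpd and Ctns/Shpk were the other XX-only ones. The XY-only ones were Ndufb9/Tatdn1, Ganc/Tmem87a, Hexa/Tmem202, Parg/Timm23 and Efcab7/Itgb3bp, with centres 7 to 18.5 bp from the midpoint. Ndufb9 encodes a subunit of respiratory complex I and Parg the enzyme that degrades poly(ADP-ribose).

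Textbook pairs came next. Of 16 pairs named for sharing a promoter, 15 have ends at most 2 kb apart in this annotation, and 8 had a shared peak. These were Hspd1/Hspe1, Atm/Npat (a DNA damage kinase and an activator of histone genes, 61 bp apart), Paics/Ppat (purine synthesis, 276 bp), Brca1/Nbr1 (152 bp), Pdcd10/Serpini1 (641 bp), Cbx3/Hnrnpa2b1 (106 bp), Gart/Son (852 bp) and Cdc45/Ufd1 (236 bp). Pdcd10/Serpini1 also had an XX-only peak. Mcm4/Prkdc, which encode a replicative helicase subunit and the catalytic subunit of DNA-dependent protein kinase, had an XX-only peak. Col4a1/Col4a2 had 1 of each sex, as described above. Surf1/Surf2 (238 bp), Mrps12/Sars2 (136 bp), Afmid/Tk1 (584 bp) and Psmb1/Tbp (1612 bp) had none within 1 kb of both genes. Acat2/Tcp1 ends were over 2 kb apart.

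The lists of genes were described by how many of their members stood at a close-pair peak. Genes at shared peaks were named first, so the genes named do not show how many of a list were shared. Of all autosomal protein-coding genes, 9.97% did so (2049 of 20558). The share was 34.6% for mitochondrial ribosomal proteins (27 of 78) and 34.4% for respiratory chain subunits (32 of 93). Of those genes, 25 and 27 were at a shared peak. Mrpl32, next to the proteasome gene Psma2, had its start 15.5 bp from the peak centre, and Ndufa4, next to Phf14, 16.5 bp. At Mrpl46/Mrps11, whose starts are 42 bp apart, both partners are mitochondrial ribosomal genes. Aminoacyl-tRNA synthetase genes followed with 32.4% (11 of 34, among them Rars2 beside the origin recognition gene Orc3), DNA replication and repair with 28.9% (24 of 83) and RNA polymerase subunits with 28.6% (8 of 28). Pcna, the sliding clamp of DNA replication, had its start 0.5 bp from the centre of a shared peak and has Cds2 as its neighbour at 158 bp. Rad51c, of recombination repair, and Rpa1, of single-stranded DNA binding, were also at shared peaks.

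The share was 27.1% for splicing factors (16 of 59), with Prpf4/Cdc26 joining a spliceosome and an anaphase-promoting complex gene. Chaperones reached 24.3% (17 of 70, with 16 at shared peaks, among them the chaperonin genes Cct3 and Cct6a). Mediator subunits had 21.4% (6 of 28), cytosolic ribosomal proteins 21.2% (17 of 80, with Rpl35a, Rpl9, Rpl15 and Rps27 first), genes with initiation factor symbols 20.8% (11 of 53) and genes with proteasome symbols 19.1% (9 of 47). Lists were drawn by symbol or name, so Psmg2 counts under the proteasome and Eif4enif1 and Eif1ad under initiation factors, whatever their role. Cyclins, CDKs and mitotic genes had 14.7% (15 of 102), among them Aurka, the mitotic kinase, beside Cstf1. Histone genes had 13.8% (11 of 80), but 3 of these 11 were at shared peaks, among them the divergent pair H2ac22/H2bc22.

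Few genes of the developmental lists were at close-pair peaks, and in some of these lists few genes have a close neighbour. No member of the hedgehog list (0 of 17), the mesenchymal transcription factors (0 of 25), the duct regulators (0 of 20) or the Hox genes (0 of 39) was at such a peak. Of the BMP and TGF-beta genes 1 of 31 was, Acvr1, a type I BMP receptor gene, beside Upp2. Nuclear receptor genes had 3 of 45: Nr1h3 and Nr1h2, the genes of both liver X receptors, and Nr4a2. The peak centre lay 176.5 bp from an end of Nr1h3 and 385.5 bp from one of Nr4a2. It lay 891.5 bp from an end of Nr1h2, where the neighbour Pold1 was nearer. Collagens had 2 of 42, the pair Col4a1/Col4a2. Zfp zinc finger genes had 7.78% (28 of 360) and olfactory receptors 0 of 1103. No list was tested. These counts follow how genes are arranged as well as where COUP-TFII was found, since a gene without a close neighbour cannot be a member. Of mitochondrial ribosomal genes, 64.1% had a protein-coding neighbour with an end within 2 kb, against 33.2% of all genes, 9.68% of BMP and TGF-beta genes and 1 of 25 mesenchymal factors. Among genes with such a neighbour, 54.0% of mitochondrial ribosomal and 56.1% of respiratory chain genes were at a close-pair peak, against 30.0% of all genes. The aminoacyl-tRNA synthetases had 57.9%, splicing factors 53.3%, chaperones 48.6%, DNA replication and repair 43.6% and RNA polymerase subunits 8 of 20 genes. Cytosolic ribosomal proteins had 42.5%, cyclins, CDKs and mitotic genes 38.5%, genes with initiation factor symbols 37.9% and genes with proteasome symbols 37.5%. Zfp genes had 38.4% and mediator subunits 31.6%. For histones the share was 11 of 55, for nuclear receptors 3 of 15, for collagens 2 of 12 and for olfactory receptors 0 of 19. BMP and TGF-beta genes had 1 of 3, Hox genes 0 of 13, hedgehog genes 0 of 5, duct regulators 0 of 3 and mesenchymal factors 0 of 1. With so few genes that could be members, these last lists allow no reading of their share.

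**Figure D4:**
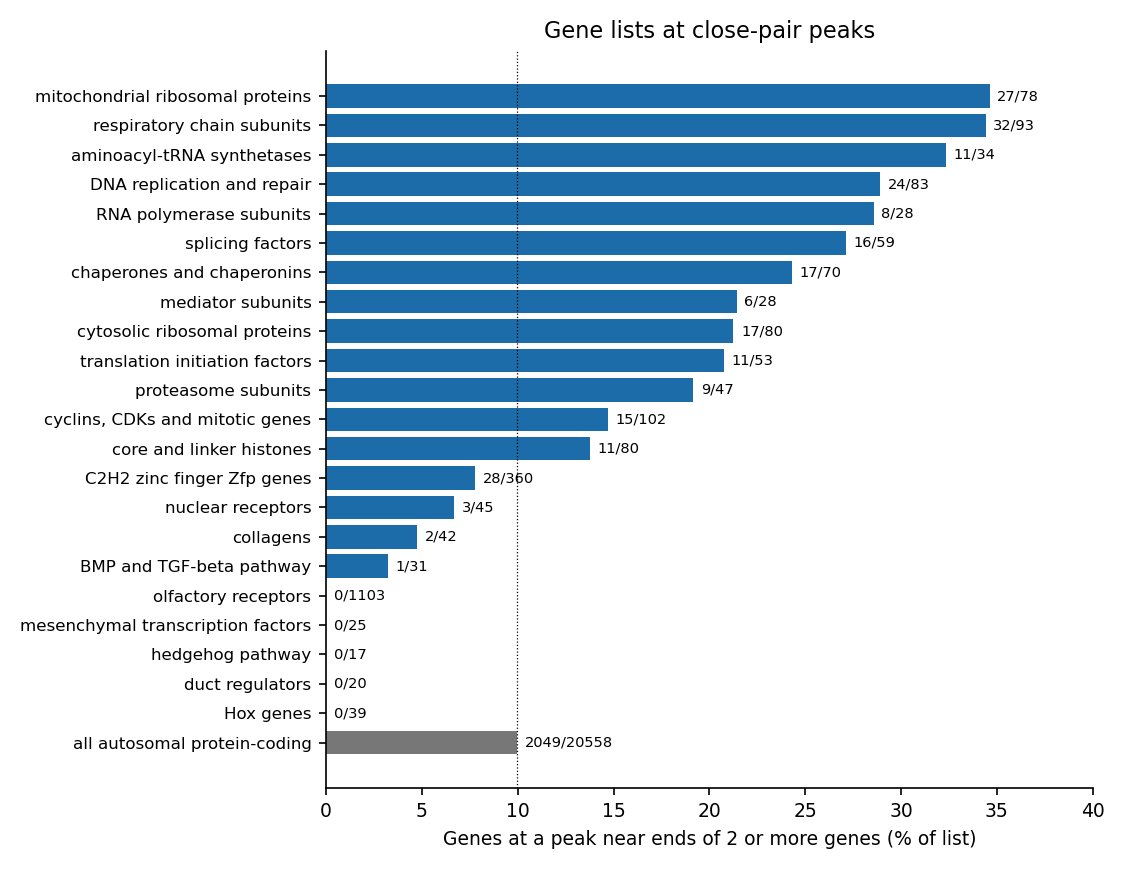
Percent of each list's autosomal genes that stood at a close-pair peak (horizontal axis), with counts beside the bars; the grey bar and dotted line give all autosomal protein-coding genes. Mitochondrial ribosomal (27 of 78) and respiratory chain genes (32 of 93) lead, and hedgehog, mesenchymal, duct, Hox and olfactory receptor lists have 0.

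Promoters of head-to-head pairs with a peak had a median GC content of 63.0% and a median CpG ratio (observed over expected) of 0.861. Head-to-head pairs without a peak had 58.7% and 0.735, single starts with a peak 62.3% and 0.810, and genes with no peak within 1 kb of an end 52.7% and 0.339. Here and below, pairs without a peak are those with none within 1 kb of both genes, so a peak near 1 gene only is possible. They include most of the widest pairs (12 of 104 at 1001 to 2000 bp had a peak), so gap width is mixed into these contrasts. Each promoter is the 300 bases from 250 before to 50 after the start, and the promoters of a pair overlap, so they are not independent. An ETS motif (CCGGAAG on either strand) was in 28.8% of the promoters of head-to-head pairs with a peak (358 of 1242), 19.5% of those without (135 of 694), 19.1% of single starts with a peak and 12.3% of all autosomal protein-coding genes. For the same 4 groups in that order, a TATA box (TATAAA) was in 4.35%, 8.50%, 6.51% and 13.5%. GC boxes (GGGCGG) were in 66.5%, 57.2%, 71.8% and 47.3%, so that single starts with a peak had the highest share. CCAAT was in 39.3%, 43.1%, 39.8% and 39.1%. The palindrome TGACGTCA was in 4.03%, 2.74%, 3.96% and 2.40%, and CACGTG in 12.3%, 8.21%, 11.4% and 7.97%. Over all promoters of the table, of every chromosome and gene kind, the shares were 8.86% for the ETS motif, 13.6% for the TATA box, 35.7% for the GC box, 37.4% for CCAAT, 1.79% for TGACGTCA and 7.15% for CACGTG. These are counts of letters and were not tested.

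The nuclear receptor half-site (AGGTCA on either strand) was no more frequent in these promoters: 11.4% of those at head-to-head pairs with a peak held it, against 11.1% of those without a peak, 12.7% of single starts with a peak, 14.4% of all autosomal protein-coding genes and 16.3% of all promoters. Each promoter ends 50 bases after the start, while head-to-head centres lay a median of 103 bp into the gene. These shares thus describe promoters and not the sequence under the peaks. The promoter table covers 38.3% of the bases of the close-pair peaks and 86 of the 1124 whole. The bases read all lie from 250 before to 50 after a start. Distance from the peak centre is therefore mixed with distance from a start in the densities that follow. Within 50 bp of the peak centre there were 47 half-sites, or 11.3 per 10 kb of sequence, and farther out 50, or 5.73 per 10 kb, which is 1.97 times as dense at the centre. Peaks near the end of 1 gene gave 10.97 and 5.48 per 10 kb, a ratio of 2.002. No test was made of these densities. The ETS motif was less dense at the centre of close-pair peaks than farther out, at 12.5 against 16.7 per 10 kb. So were the GC box, at 33.8 against 42.2, and CCAAT, at 9.58 against 20.4. CACGTG was near even, at 5.99 against 6.19. TATAAA (1.44 against 0.687) and TGACGTCA (1.92 against 1.49) were denser at the centre, on only 6 and 8 matches there. At peaks near the end of 1 gene both were less dense at the centre, at 0.57 against 1.55 and 1.35 against 1.78. At close-pair peaks the half-site was thus not the only motif denser at the centre. Of the 86 peaks read whole, 18 held a half-site (20.9%), 9 of them within 50 bp of the centre as in Hspd1/Hspe1, Elf1/Wbp4 and Fv1/Miip above. The DR1 of 2700097O09Rik/Srp54a is 1 of 13 in the 32851 promoters of the table.

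**Figure D5:**
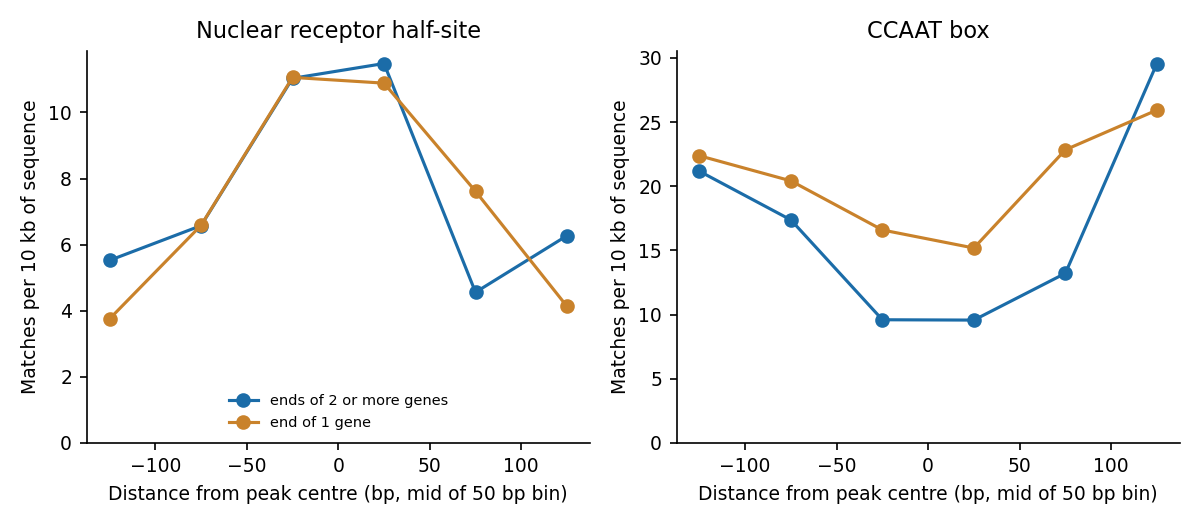
Matches per 10 kb of readable sequence (vertical axis) of the nuclear receptor half-site and of CCAAT, on either strand, against distance from the peak centre (bp, bins of 50 bp), for close-pair peaks and for peaks near the end of 1 gene. Half-sites are densest in the 2 bins next to the centre (11.03 and 11.5 per 10 kb at close pairs), where CCAAT is sparsest (9.59 and 9.57).

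Just inside the limit of 1 kb, Rdh10/Rpl7 (shared), Fcgrt/Rcn3 (XX-only), 2310039H08Rik/Rpl7l1 and Ufc1/Usp21 (shared) and Rccd1/Unc45a (XY-only) had their second end 986.5 to 998.5 bp from the centre. Just outside it, Myl12a/Myom1 (XX-only), Rad51d/Rffl (XY-only), Ehd2/Nop53, Gm52612/Ptgfrn and Fam214b/Stoml2 (shared) had it at 1001.5 to 1010.5 bp. Among the 21 peaks near 3 genes were Smim27/Topors with Ndufb6, Polr2i/Tbcb with Ovol3, and Alkbh1/Slirp with Nrp, named after their values were seen.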

How the data were processed

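Per the labels, COUP-TFII ChIP-seq was done on pooled mesonephroi. Tools listed in the submitters' processing notes are HOMER 4.10.3, Bowtie 1.2, bedtools 2.24.0, Picard and cutadapt, and mm10 is the build. What each tool did, the threshold for a peak and the way replicates were merged are not stated there. The labels' extraction text names RUNX1 and ovaries, while titles, tissue and antibody fields name COUP-TFII and mesonephroi, which were used. Only the peak lists were used. Each list deposited by the authors holds positions (chromosome, start, end) and no other value, so depth is unknown and intervals cover counting error only.

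Peaks were called shared with at least 1 bp in common (count checked with bedtools 2.31.1). Gene ends came from RefSeq genes of GRCm38.p6, with rows of unplaced scaffolds and patches left out (20558 autosomal protein-coding genes remained). A strand was taken from the RefSeq promoter table for 80.1% of them. Peak letters were read from the promoters that overlap a peak, and motifs were searched as exact letters on both strands. Pairs of gene ends at most 2 kb apart were described by orientation; a planned test of that share was dropped because the outcome is the rule that chose the peaks. Shares have exact (Clopper-Pearson) 95% intervals, and comparisons used Fisher's exact test (two-sided, conditional odds ratio, SciPy 1.17.1) at a threshold of 0.05. The class, distance and odds ratio steps were tested on simulated data. Members and gene lists were chosen with earlier results of these data known. Genes named are the textbook pairs, up to 4 genes of each list, pairs with 2 peaks, same-list pairs, and the sex-only peaks nearest to the middle. Within a list, genes at shared peaks came first and then those with the smallest distances. Some are given only by count. The result for 1 textbook pair is not reported here.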

Additional observations from a re-analysis of the deposited data

How the results depend on the processing

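No paired analysis was possible because each sex has 1 peak list over its 2 replicates, and for the same reason no replicate could be left out. A stricter peak threshold could not be set, since the lists carry no score. The number of close-pair peaks, 1124, was between 775 and 1596 with other distances, definitions of a shared peak, positions or without predicted genes, and 2183 with genes of all kinds, because more ends are then counted. The larger shared share at close pairs than at single ends kept its direction and call in 12 of 12 alternatives (odds ratios 1.23 to 1.60), including peaks within 200 bp of the nearest end (1.47), stratification by chromosome (1.45) and head-to-head peaks against single starts (1.60, chosen after the data were seen). So did the comparison with peaks over 1 kb from gene ends in 8 of 8 (2.01 to 3.46). The XX-only share among sex-only peaks, at an odds ratio of 1.31, no longer passed with centres within 100 bp (1.19), without predicted Gm and Rik genes (1.26) or with genes of all kinds (1.05); the cause was not tested.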
